A study of Mus musculus with 9 samples.

Results

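The HoxC genes are the 9 homeobox genes Hoxc4, Hoxc5, Hoxc6, Hoxc8, Hoxc9, Hoxc10, Hoxc11, Hoxc12 and Hoxc13, which lie in a row on mouse chromosome 15. Their RING1B peaks were taken by name, as every peak whose assigned nearest gene was exactly one of these genes. That gave 6 peaks of 1810 in Eed-/- mouse embryonic stem cells (mESCs) and 21 peaks of 2347 in Eed+/+ mESCs. The study immunoprecipitated chromatin of C57BL/6 mESCs with an antibody to RING1B and sequenced the recovered DNA, to ask where RING1B stays bound when EED is missing. The labels name 3 Eed-/- RING1B samples, 1 Eed+/+ (wild type) RING1B sample and 3 input samples, all of the inputs from Eed+/+ cells, and the samples of the series for CBX7 were not analysed here. The labels give the 3 Eed-/- samples replicate numbers, whereas the methods speak of sequencing lanes, and peaks were called once per genotype. No value below therefore has a replicate error, a difference between the genotypes cannot be told apart from a difference between 2 cultures or immunoprecipitations, and no test between the genotypes was made. Peak lists hold no expression values, so the identity of the cells as mESCs could not be checked against marker genes.

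RING1B is the catalytic subunit of Polycomb repressive complex 1 (PRC1), which attaches ubiquitin to histone H2A. EED is a core subunit of Polycomb repressive complex 2 (PRC2), which methylates lysine 27 of histone H3, and cells without EED lack H3K27me3. Hox genes encode transcription factors that give cells along the head to tail axis their positional identity, and in vertebrates their order on the chromosome follows the order of the body regions they pattern. In mESCs the Hox clusters are silent and are classic Polycomb targets. CpG islands, stretches rich in the dinucleotide CG, cover many Hox start sites and are where Polycomb complexes are usually found in mESCs.

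All 9 genes are transcribed in the same direction, from Hoxc13 at the 5′ end to Hoxc4 at the 3′ end of the cluster, and positions below are those of the mm9 build. The genes span chr15:102751534-102867274, an interval of 115741 bp. The sequences that carry the comparison are 150 bp windows centred on peak summits, the positions of highest tag density, read from the + strand of that genome. They are shown as examples of how widely HoxC summits varied in CG dinucleotides, and the first is the window with the most. CG is in capitals in each window and reads the same on both strands.
Hoxc9, Eed-/- summit in the coding sequence, chr15:102812434-102812583: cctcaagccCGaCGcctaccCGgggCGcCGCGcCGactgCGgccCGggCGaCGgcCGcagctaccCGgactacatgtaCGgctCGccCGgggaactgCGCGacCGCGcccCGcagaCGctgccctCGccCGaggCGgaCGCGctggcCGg
Hoxc13, Eed+/+ summit in the coding sequence, no Eed-/- peak, chr15:102751984-102752133: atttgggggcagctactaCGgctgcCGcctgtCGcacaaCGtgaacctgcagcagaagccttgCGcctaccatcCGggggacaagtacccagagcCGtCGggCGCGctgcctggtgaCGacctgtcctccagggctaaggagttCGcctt
Hoxc4, Eed+/+ summit outside the cluster, no Eed-/- peak, chr15:102916328-102916477: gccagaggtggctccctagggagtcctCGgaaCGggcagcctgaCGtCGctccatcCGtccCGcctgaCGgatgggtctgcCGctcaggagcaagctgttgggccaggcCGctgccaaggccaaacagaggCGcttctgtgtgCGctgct
Hoxc13, Eed+/+ summit upstream of the cluster, no Eed-/- peak, chr15:102740509-102740658: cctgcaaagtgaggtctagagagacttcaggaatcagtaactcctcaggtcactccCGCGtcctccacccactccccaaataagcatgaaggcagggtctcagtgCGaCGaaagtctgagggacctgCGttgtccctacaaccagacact

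The Hoxc9 window, under peaks of Eed-/- and Eed+/+ cells, held 28 CG dinucleotides, the most of any HoxC summit, whereas the Eed-/- summit windows of Hoxc10 and Hoxc5 held 9 and 7. The printed windows at Eed+/+ summits without an Eed-/- peak held 12 at the Hoxc13 start, 11 at the distal Hoxc4 peak and 5 upstream of Hoxc13, and the others of this kind reached 16, at Hoxc6. The counts at summits with and without an Eed-/- peak thus overlapped. Over all peaks of the series, the median count in such a window was 14 in Eed-/- cells and 13 in Eed+/+ cells. Over the HoxC peaks it was 12 (range 7 to 28) in Eed-/- cells and 9 (range 5 to 25) in Eed+/+ cells. Tiles of the same length along chromosome 15 held a median of 1, and 61.5% of them held at least 1 CG. At least 1 CG lay in the summit window of 98.5% of all Eed-/- peaks and 99.6% of all Eed+/+ peaks, so the letters CG by themselves set no HoxC peak apart.

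In Eed-/- cells RING1B peaks stood at 6 of the 9 HoxC genes, Hoxc12, Hoxc11, Hoxc10, Hoxc9, Hoxc8 and Hoxc5, with 1 peak each. No peak was called at Hoxc13, Hoxc6 or Hoxc4 in these cells. In Eed+/+ cells all 9 genes had at least 1 peak, with 4 at Hoxc4, 3 each at Hoxc12, Hoxc11 and Hoxc8, 2 each at Hoxc13, Hoxc9 and Hoxc5, and 1 each at Hoxc10 and Hoxc6. Every one of the 6 Eed-/- peaks shared at least 1 bp with an Eed+/+ HoxC peak (100%, exact 95% interval 54.1 to 100), where 73.1% of all Eed-/- peaks of the series did so with any Eed+/+ peak. In the other direction 6 of the 21 Eed+/+ peaks shared a base with an Eed-/- peak (28.6%, exact interval 11.3 to 52.2), and the share over all Eed+/+ peaks was 53.1%. These intervals are Clopper-Pearson intervals and, like all intervals given here, cover counting error only, since neighbouring peaks are not independent and the tags carry no molecular identifiers.

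**Figure D1:**
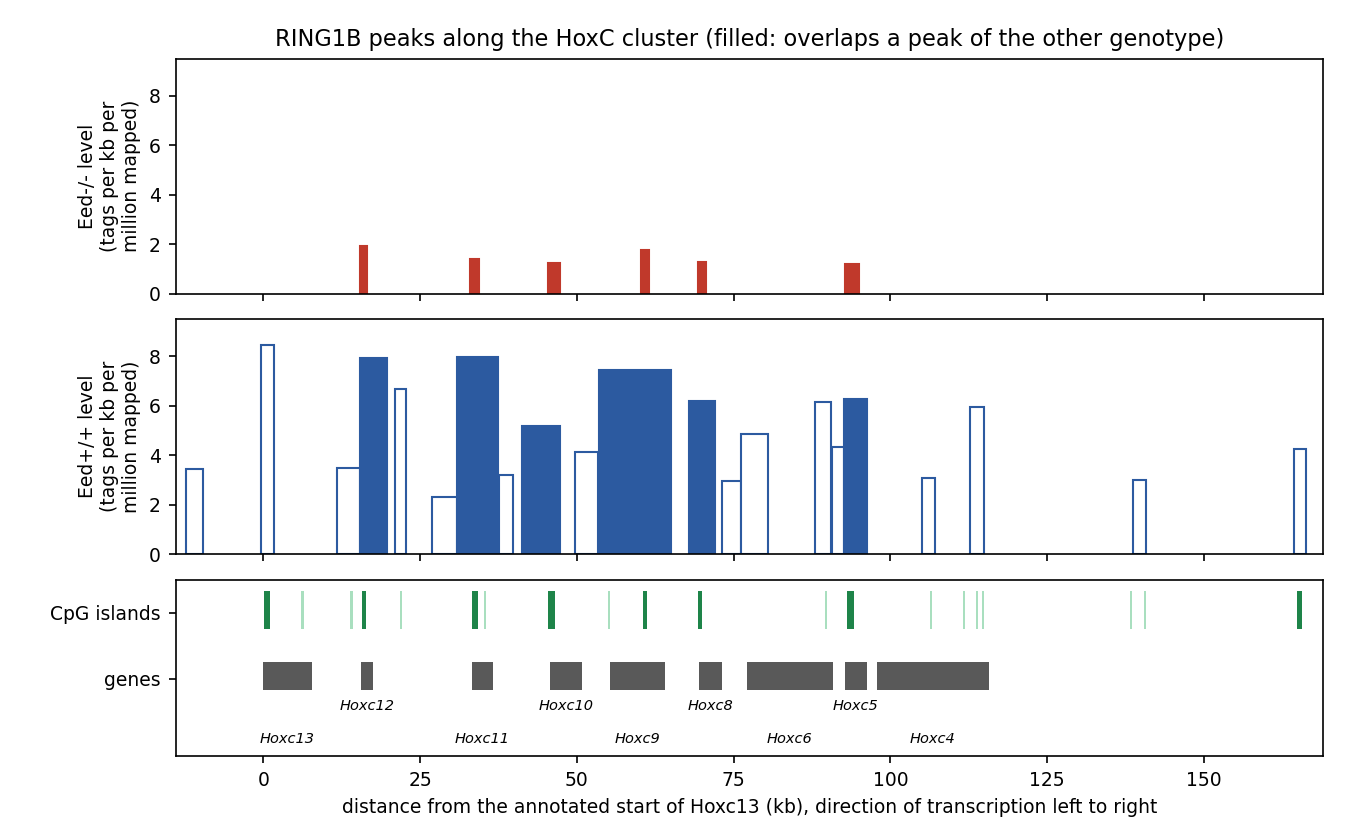
RING1B peaks along the HoxC cluster, Eed-/- above Eed+/+, with the distance from the annotated start of Hoxc13 in kb on the x axis and the RING1B level (tags per kb per 1000000 mapped tags) as the height of each peak. Filled peaks share bases with the other genotype, and the bottom row shows long (dark) and short (light) CpG islands above the genes. The 6 Eed-/- peaks lie between 15.9 and 93.1 kb by their summits and stay below a level of 2, while the Eed+/+ peaks reach beyond both ends of the cluster.

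The peaks of Eed-/- cells covered 8987 bp and those of Eed+/+ cells 76002 bp. Inside the interval of the genes, 7.76% of the bases lay under an Eed-/- peak and 59.6% under an Eed+/+ peak. Of the bases under an Eed+/+ HoxC peak, 11.8% also lay under an Eed-/- peak. The Eed-/- peaks held 897 tags in all, or 12.8 per 1000000 mapped tags, and the Eed+/+ peaks 7068 tags, or 420.4 per 1000000. These are sums over regions called separately in each library. The raw sums follow the covered lengths, and the sums per 1000000 also carry the difference in depth given below. Between the Eed+/+ peaks lay 20 gaps with a median of 1914 bp, of which 6 were under 200 bp and the smallest was 15 bp, so neighbouring peaks in places formed near continuous domains. No peak of either genotype that was assigned to another gene lay inside the cluster or within 5 kb of it.

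Sequencing depth differed between the genotypes. The Eed-/- immunoprecipitate had 70343706 mapped tags and the Eed+/+ immunoprecipitate 16814546, which makes the Eed-/- library 4.18 times as deep, and the input had 52569530. Every deposited peak held more than 100 tags whatever the depth of its library. The RING1B level used here is the tag count of a peak divided by its width in kb and by the mapped tags in units of 1000000, and input was not subtracted. At the Eed+/+ depth the 6 Eed-/- HoxC peaks would hold between 24.9 and 46.6 tags. None of them would exceed 100 tags at that depth, and over the whole series only 120 of the 1810 Eed-/- peaks would.

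Hoxc12 encodes a posterior HoxC factor and had the highest Eed-/- level of the cluster. Its Eed-/- peak, chr15:102766984-102768109, was 1126 bp wide and held 153 tags, against 571 tags over 4278 bp in the overlapping Eed+/+ peak, chr15:102766966-102771243. The level was 1.93 (exact Poisson 95% interval 1.64 to 2.26) in Eed-/- cells and 7.94 (7.30 to 8.62) in Eed+/+ cells. The ratio of the Eed-/- to the Eed+/+ level was 0.243 (exact binomial interval 0.202 to 0.291). Both summits lay in the coding sequence close behind the start site, 262 bp past it in Eed-/- cells and 278 bp past it in Eed+/+ cells. The fold enrichment over background was 8.59 in Eed-/- cells, rank 66 of 1810, and 50.54 in Eed+/+ cells, the highest of the HoxC peaks.

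Hoxc11, a paralogue of the genes that pattern the hindlimb and kidney, had an Eed-/- peak at chr15:102784571-102785924. It was 1354 bp wide with 135 tags and a level of 1.42 (1.19 to 1.68), inside an Eed+/+ peak of 6457 bp with 865 tags and a level of 7.97 (7.44 to 8.52). The ratio of 0.178 (0.147 to 0.214) was the lowest of the 6 pairs. The summits were also the farthest apart, with the Eed-/- summit 136 bp past the start site in the coding sequence and the Eed+/+ summit 1552 bp past it in the intron.

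Hoxc10 encodes a factor active in lumbar motor neurons. Its Eed-/- peak, chr15:102796985-102798779, held 156 tags over 1795 bp at a level of 1.24 (1.05 to 1.45), and its Eed+/+ peak held 526 tags over 6027 bp at a level of 5.19 (4.76 to 5.65). The Eed+/+ level was the lowest of the 6 pairs, so the ratio of 0.238 (0.198 to 0.285) was close to that of Hoxc12 although both levels were lower. The peaks ended within a few bases of each other, at 102798779 in Eed-/- cells and 102798785 in Eed+/+ cells, and the Eed+/+ peak reached farther upstream. The start site of Gm20398, a transcript annotated from 102797874 to 102846107 on the same strand, lay under the peaks of both genotypes.

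Hoxc9, which sets the thoracic identity of motor neurons, had the widest Eed+/+ peak of the cluster, chr15:102805096-102816494, with 1431 tags over 11399 bp. It was rank 17 of 2347 by width and rank 33 by tags. The Eed-/- peak inside it, chr15:102811800-102813047, was 1248 bp wide with 154 tags, and levels were 1.75 (1.49 to 2.05) in Eed-/- cells and 7.47 (7.08 to 7.86) in Eed+/+ cells. The level ratio was 0.235 (0.198 to 0.278). The width of the Eed-/- peak was 0.109 times that of the Eed+/+ peak, the lowest width ratio among the 1247 pairs of the series. The summits lay only 48 bp apart, 5046 bp past the nearest Hoxc9 start site in Eed-/- cells and 4998 bp past it in Eed+/+ cells, in coding sequence and not at either annotated Hoxc9 start site. This was also the HoxC peak with the highest Eed-/- fold enrichment, 10.35, rank 34 of 1810, against 48.73 in Eed+/+ cells.

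Hoxc8 encodes a factor of the brachial and thoracic spinal cord. Its Eed-/- peak, chr15:102820909-102822069, had the fewest tags of the 6, 104 over 1161 bp, which is near the 100 tag minimum. The level was 1.27 (1.04 to 1.54), and that of the Eed+/+ peak, 423 tags over 4069 bp, was 6.18 (5.61 to 6.80), a ratio of 0.206 (0.165 to 0.256). The Eed-/- summit lay 52 bp past the start site, in the UTR, and the Eed+/+ summit 432 bp past it, in the coding sequence.

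Hoxc5, which with its paralogue Hoxa5 maintains phrenic motor neurons, had the widest Eed-/- peak, chr15:102844285-102846587, with 195 tags over 2303 bp and a level of 1.20 (1.04 to 1.39). Its Eed+/+ peak held 391 tags over 3694 bp at a level of 6.29 (5.69 to 6.95), a ratio of 0.191 (0.160 to 0.228). The Eed-/- peak began 39 bp past the start site and covered 62.3% of the Eed+/+ peak, the largest share of the 6 pairs.

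**Figure D2:**
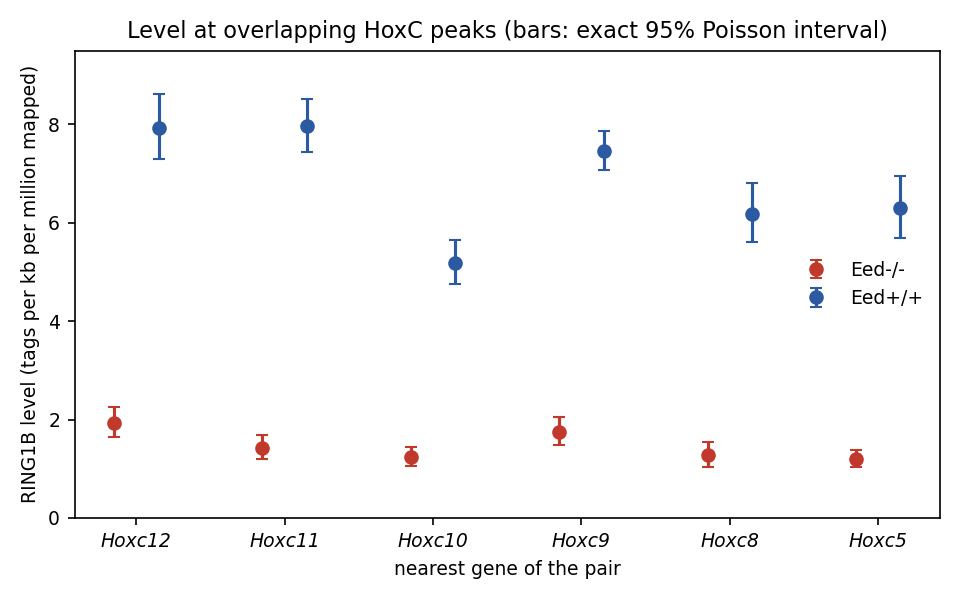
RING1B level in tags per kb per 1000000 mapped tags at the 6 overlapping HoxC peak pairs, Eed-/- left of Eed+/+ for each gene, with exact 95% Poisson intervals as bars that cover counting error only. The Eed-/- levels lie between 1.20 and 1.93 and the Eed+/+ levels between 5.19 and 7.97.

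Eed-/- cells had the lower level at 6 of 6 pairs, with counting intervals that did not overlap, but 100% of the 1247 pairs of the series were lower in Eed-/- cells too. The ratio of the Eed-/- to the Eed+/+ level ran between 0.178 and 0.243 with a median of 0.220, and the median over all pairs was 0.225 (quartiles 0.179 to 0.303). Without scaling for depth, tags per kb were 84.7 to 135.9 in Eed-/- cells and 87.3 to 134.0 in Eed+/+ cells at these pairs, and the median ratio was 0.922. The scaled ratio thus lay near 0.239, the inverse of the depth ratio, which is the ratio that equal tags per kb in the 2 libraries would give. Both lists carry the same minimum of tags, and its part in the ratio was not tested. Fold enrichment, which does not use the mapped tags in this way, gave a median ratio of 0.163 (0.104 to 0.212) at the HoxC pairs and 0.248 over all pairs.

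Relative to their Eed+/+ partners, the Eed-/- HoxC peaks were narrower than the median pair of the series. The median Eed-/- width was 1301 bp at the HoxC peaks and 2155 bp over all Eed-/- peaks, whereas the median Eed+/+ width was 3128 bp at the HoxC peaks and 2665 bp over all Eed+/+ peaks. The ratio of widths within a pair had a median of 0.274 (0.109 to 0.623) over the HoxC pairs and of 0.833 over all pairs. Counted from the narrowest of the 1247 pairs, the width ratio of Hoxc9 was rank 1, Hoxc11 rank 18, Hoxc12 rank 36, Hoxc8 rank 52, Hoxc10 rank 61 and Hoxc5 rank 302. The Eed+/+ peaks of these pairs were wide to begin with, 3694 bp or more. Over the 367 other pairs with an Eed+/+ peak at least that wide, the median width ratio was 0.577 (quartiles 0.382 to 0.795), and the difference from these pairs was not tested. The Eed-/- peak lay wholly inside the Eed+/+ peak in 6 of 6 HoxC pairs and in 57.4% of all pairs. The absolute distance between the summits had a median of 321 bp over the HoxC pairs and 97 bp over all pairs.

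Within each Eed+/+ peak the Eed-/- peak stood on a part that was denser in CG than the rest. Under the Eed-/- peak there were 7.55 CG per 100 bp at Hoxc12, 6.94 at Hoxc11, 4.96 at Hoxc10, 7.53 at Hoxc9, 6.03 at Hoxc8 and 4.78 at Hoxc5. In the rest of the same Eed+/+ peaks there were 2.32, 2.08, 2.43, 2.09, 1.24 and 0.719 CG per 100 bp in the same order of genes. The density was higher under the Eed-/- peak in 6 of 6 pairs, as it was in 97.8% of the 1118 pairs of the series with a stretch outside the Eed-/- peak. Medians inside and outside were 6.49 and 2.08 at the HoxC pairs and 6.47 and 2.10 over all pairs, so this contrast was shared with the series.

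**Figure D3:**
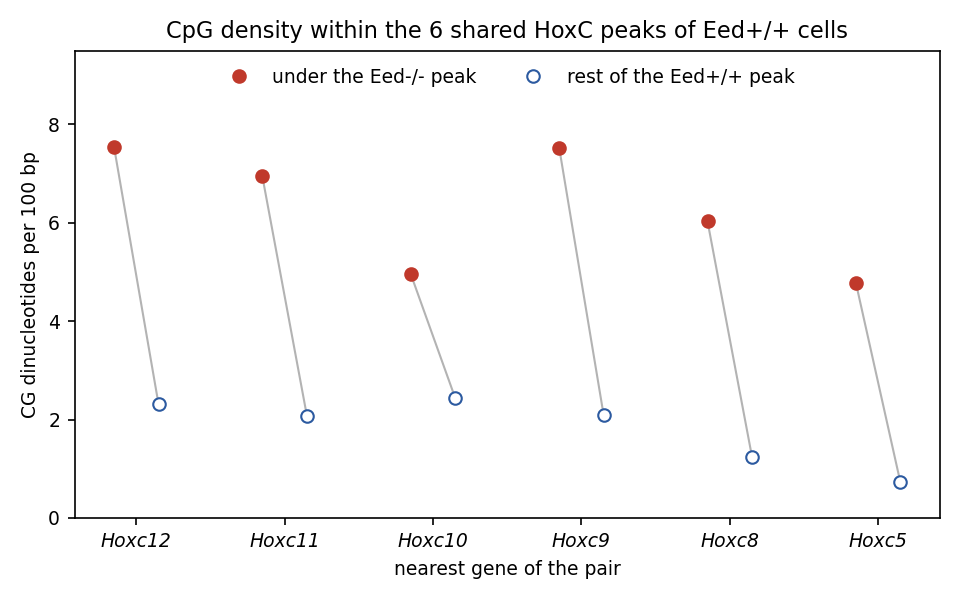
CG dinucleotides per 100 bp within the 6 Eed+/+ HoxC peaks that overlap an Eed-/- peak, for the stretch under the Eed-/- peak (filled, left) and for the rest of the Eed+/+ peak (open, right). The stretch under the Eed-/- peak holds between 4.78 and 7.55 and the rest between 0.719 and 2.43.

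CpG islands were located in the genome sequence as stretches of at least 200 bp with at least 50% GC and a ratio of observed to expected CG of at least 0.6. Over the span of the HoxC peaks there were 20, of which 6 shared a base with an Eed-/- peak and 17 with an Eed+/+ peak. Of these islands 8 were long, meaning at least 500 bp with 55% GC and a ratio of 0.65. Over the genome 10133 of 23583 islands were long, and the share of those islands with a peak is not given here. Eed-/- peaks lay on 6 of the 8 long HoxC islands and on 0 of the 12 short ones, and Eed+/+ peaks lay on all 8 long islands and on 9 of the short ones. Each of the 6 Eed-/- peaks thus sat on its own long island, at Hoxc12, Hoxc11, Hoxc10, Hoxc9, Hoxc8 and Hoxc5. Over the whole series 86.2% of the Eed-/- peaks lay on a long island. Among Eed+/+ peaks 8 of 21 did so at HoxC and 76.9% over the series. The Hoxc9 island, chr15:102812082-102812740, was 659 bp long and lay within the gene, 4619 bp past the nearest start site, while a short island of 365 bp ended 17 bp before the Hoxc9 start site farthest upstream and had an Eed+/+ but no Eed-/- peak.

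The long islands without an Eed-/- peak were at the ends. The island at the Hoxc13 start, chr15:102751623-102752623, was 1001 bp long with 108 CG, and the other, chr15:102916355-102917229, was 875 bp long and lay beyond the 3′ end of the cluster. Of the Eed+/+ peaks with a long island, 6 of 8 HoxC peaks and 63.7% of the 1798 other peaks overlapped an Eed-/- peak. Where the Eed+/+ peak had a short island only, 0 of 6 HoxC peaks and 22.6% of 394 others did so, and where it had none, 0 of 7 HoxC peaks and 5.22% of 134 others. An island lay under 6 of 6 Eed-/- HoxC peaks and 95.2% of all Eed-/- peaks, and under 14 of 21 Eed+/+ HoxC peaks and 94.0% of all Eed+/+ peaks. The median CG density per 100 bp was 6.49 in the Eed-/- HoxC peaks and 6.20 in all Eed-/- peaks, and 3.15 in the Eed+/+ HoxC peaks and 5.01 in all Eed+/+ peaks. None of these differences was tested.

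Hoxc13, which is needed for the hair shaft and nails, was the gene with the strongest RING1B level in Eed+/+ cells and without a peak in Eed-/- cells. The Eed+/+ peak at its start, chr15:102751204-102753195, held 284 tags over 1992 bp at a level of 8.48 (7.52 to 9.52). By the other measures this peak was not the strongest. Among the Eed+/+ HoxC peaks it was rank 8 by tags and rank 10 by fold enrichment, which was 23.77. The nearest Eed-/- peak began 15450 bp past the start site, at Hoxc12. Another Eed+/+ peak assigned to Hoxc13, chr15:102739260-102741955, had its summit 10950 bp upstream of the gene, no island, and a level of 3.46 (2.94 to 4.05).

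Hoxc6, a factor of the brachial spinal cord, had an Eed+/+ peak at chr15:102839475-102842068 with 268 tags and a level of 6.14 (5.43 to 6.93) over its downstream start site at 102839910. Its other start sites, at 102828688 and 102830960, lay under an Eed+/+ peak that the nearest gene assignment gives to Hoxc8, chr15:102827798-102831988, with 343 tags and a level of 4.87 (4.37 to 5.41). The assigned gene of a peak need not be the gene it bears on. None of the 3 start sites of Hoxc6 lay under an Eed-/- peak.

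Hoxc4, the most anterior gene of the cluster and active in the cervical region and in lymphocytes, had 4 Eed+/+ peaks spread over a wide stretch. The peak at the downstream start site, chr15:102864298-102866511, had the highest level, 5.94 (5.18 to 6.77), with 221 tags. A peak in the intron, chr15:102856656-102858655, had 104 tags and a level of 3.09. The remaining peaks had their summits 25803 and 51577 bp past the nearest Hoxc4 start site, outside the cluster, with 105 tags (level 3.00) and 137 tags (level 4.24). The upstream start site of Hoxc4, at 102849367, was the only HoxC start site without a peak in either genotype.

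Of the 13 annotated HoxC start sites, 4 lay under an Eed-/- peak and 12 under an Eed+/+ peak, where 4.02% and 5.27% of the 69963 start sites of all protein coding genes did so. Summits lay within 1 kb of a start site for 5 of the 6 Eed-/- HoxC peaks, all but that of Hoxc9, and for 68.1% of all Eed-/- peaks. They did so for 6 of the 21 Eed+/+ HoxC peaks and for 62% of all Eed+/+ peaks. The summits of the other 15 Eed+/+ peaks lay farther away. The noncoding start sites of the cluster fell on different sides of this comparison, since that of Gm16258, an antisense transcript between Hoxc12 and Hoxc11 (102774493 to 102778851), had an Eed+/+ peak over it and no Eed-/- peak.

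Beside the protein genes the cluster holds microRNA genes, small regulatory RNAs that pair with target messengers through their seed, bases 2 to 8. The mature sequences below are those of RefSeq (GRCm38.p6), with the seed in capitals, for the microRNAs whose hairpins lie under a HoxC peak.
mmu-miR-196a-5p: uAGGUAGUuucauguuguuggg
mmu-miR-196a-2-3p: uCGGCAACaagaaacugccuga
mmu-miR-615-5p: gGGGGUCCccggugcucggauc
mmu-miR-615-3p: uCCGAGCCugggucucccucuu

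The 4 seeds differ. The hairpin of Mir196a-2, whose product targets Hox messengers including Hoxb8, lies at chr15:102803772-102803881 between Hoxc10 and Hoxc9. It was under an Eed+/+ peak (level 4.15, interval 3.66 to 4.68) and under no Eed-/- peak. The hairpin of Mir615, at chr15:102845341-102845432 in the Hoxc5 intron, was under the Hoxc5 peaks of both genotypes, with their levels of 1.20 in Eed-/- cells and 6.29 in Eed+/+ cells.

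The 6 Eed+/+ peaks that overlapped an Eed-/- peak were the 6 with the most tags, 391 to 1431, and the 15 others held 104 to 343. They were also the 6 with the highest fold enrichment, 27.44 to 50.54 against 7.51 to 26.78. Level gave no such separation, since the Hoxc13 start peak was highest by level and had no Eed-/- partner, and neither did width, since 3 of the 15 others were at least as wide as the narrowest of the 6. Among the other Eed+/+ peaks of the series, 84.0% of the 520 with 391 tags or more overlapped an Eed-/- peak and 44.5% of the 1806 with fewer. At the HoxC pairs, all of which had passed the tag minimum, an Eed-/- peak held between 0.108 and 0.499 tags per Eed+/+ tag. A missing Eed-/- peak therefore says only that fewer tags than the minimum, or too few over background, were found at this depth, and not that RING1B was absent.

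**Figure D4:**
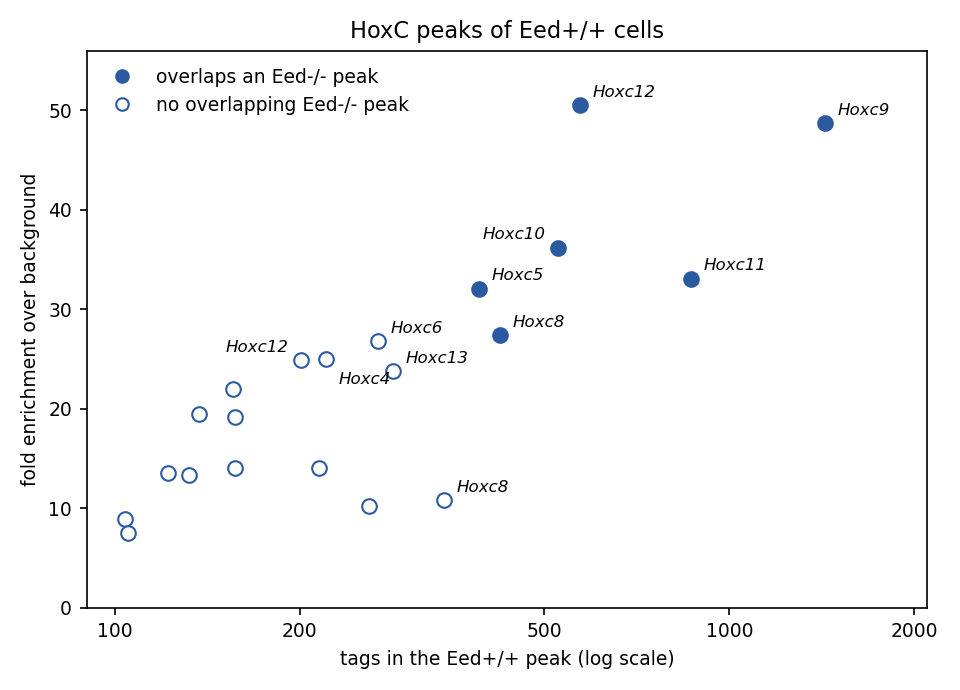
Tags (x axis, log scale) and fold enrichment over background (y axis) of the 21 Eed+/+ HoxC peaks, filled where an Eed-/- peak overlaps and open where none does. The 6 filled points have at least 391 tags and a fold enrichment of at least 27.44, and every open point lies below both.

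The Eed-/- HoxC peaks were called at a higher FDR than the Eed+/+ ones. The false discovery rate (FDR) that the peak caller gave ran between 0.51 and 1.65% in the 6 Eed-/- peaks and was 0 in all 21 Eed+/+ peaks. Only the Eed-/- peaks of Hoxc12 (0.64%) and Hoxc9 (0.51%) had an FDR of 1% or less, 2 of 6, as did 24.1% of all Eed-/- peaks. Median fold enrichment was 5.00 in the Eed-/- HoxC peaks and 4.91 in all Eed-/- peaks, and 22.0 in the Eed+/+ HoxC peaks and 16.2 in all Eed+/+ peaks. The fold enrichment of Eed-/- peaks is relative to a background library that is not given in the sources used here, and the only inputs named are of Eed+/+ cells. The median level was 1.35 against 1.32 over all Eed-/- peaks, and 4.87 against 4.80 over all Eed+/+ peaks.

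The other Hox clusters are mammalian copies of the same ancestral cluster. HoxA had 10 Eed-/- and 19 Eed+/+ peaks, HoxB had 3 and 15, and HoxD had 9 and 15. The HoxB counts include 3 Eed+/+ peaks at Hoxb13, none of which overlapped an Eed-/- peak. Eed-/- peaks covered 7.76% of the interval of the HoxC genes, 21.0% of HoxA, 6.38% of HoxB (without the distant Hoxb13) and 20.8% of HoxD, whereas Eed+/+ peaks covered 59.6, 69.5, 57.2 and 56.9% of the same intervals. The share of Eed+/+ peaks that overlapped an Eed-/- peak was 28.6% at HoxC, 47.4% at HoxA, 13.3% at HoxB (here with Hoxb13) and 53.3% at HoxD. Differences between the clusters were not tested. Its median Eed-/- width of 1301 bp was the lowest of the clusters, against 2277 bp at HoxA, 1560 bp at HoxB and 2268 bp at HoxD. The median level ratio was 0.220 at HoxC (6 pairs, 0.178 to 0.243) and 0.177 at HoxA (9 pairs, 0.128 to 0.210). It was 0.178 at HoxB (2 pairs, 0.163 and 0.193) and 0.159 at HoxD (8 pairs, 0.133 to 0.306). The range of each of these clusters overlapped that of HoxC. Of the long islands within the gene intervals, 6 of 7 had an Eed-/- peak at HoxC, 8 of 13 at HoxA, 3 of 8 at HoxB and 6 of 9 at HoxD.

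**Figure D5:**
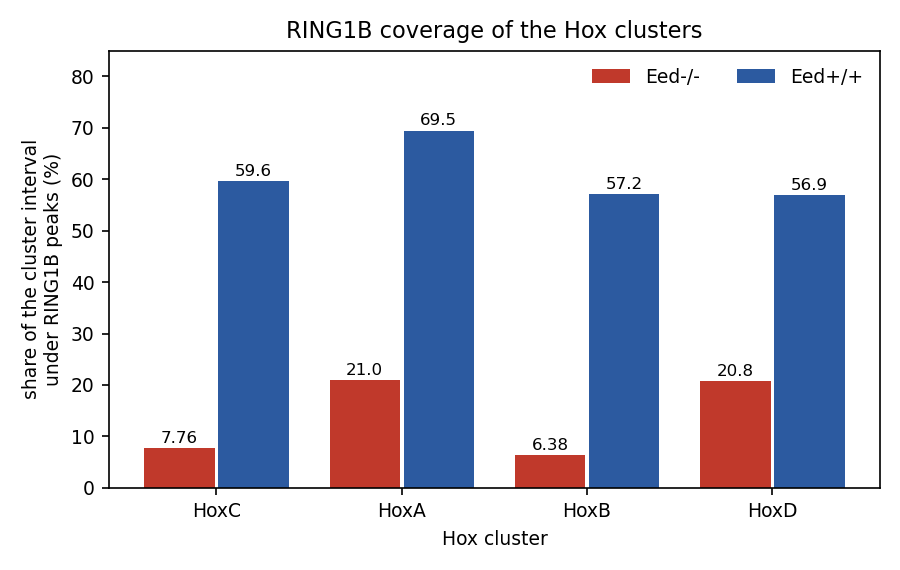
Share of the gene interval of each Hox cluster under RING1B peaks, in percent, with Eed-/- left of Eed+/+ in each cluster and 1 call per genotype, so that no error bar can be drawn. HoxC and HoxB have under 8% of the interval under Eed-/- peaks, HoxA and HoxD above 20%, and all clusters have above 56% under Eed+/+ peaks.

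Genes of the same paralogous group, which descend from a common ancestral gene, did not always share the presence of a peak assigned to them. A gene without a peak here is one without a call under its name, with the limits given above. In group 13, Hoxa13 and Hoxd13 had an Eed-/- peak, and Hoxc13 and Hoxb13 had none. In group 4, Hoxa4 and Hoxd4 had an Eed-/- peak, and Hoxc4 and Hoxb4 had none. In group 5, Hoxa5, Hoxb5 and Hoxc5 all had an Eed-/- peak, and Hoxb5 had no Eed+/+ peak under its name. In group 6, Hoxa6 and Hoxb6 had an Eed-/- peak, and Hoxc6 had none. In group 8, Hoxc8 and Hoxd8 had an Eed-/- peak, and Hoxb8 had none. In group 9, Hoxa9, Hoxc9 and Hoxd9 had an Eed-/- peak, and Hoxb9 had none. In groups 10 and 11 every measured member with a peak, Hoxc10 and Hoxc11 among them, had a peak in both genotypes. Hoxc12 had an Eed-/- peak and its paralogue Hoxd12 had an Eed+/+ peak only. The highest levels of the clusters were 1.93 at Hoxc12, 1.45 at Hoxa10, 1.72 at Hoxb5 and 2.04 at Hoxd11 in Eed-/- cells, and 8.48 at Hoxc13, 10.1 at Hoxa9, 8.94 at Hoxb2 and 12.7 at Hoxd11 in Eed+/+ cells.

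Hox proteins bind DNA with TALE homeodomain cofactors of the Pbx, Meis and Pknox families, and Cdx factors regulate Hox genes. Of the 9 TALE genes, 1 had an Eed-/- peak and 4 had Eed+/+ peaks, 12 in all, of which 1 overlapped an Eed-/- peak. That pair was at Pknox2 and its level ratio was 0.157. Of the 3 Cdx genes, 1 had an Eed-/- peak and 3 had Eed+/+ peaks, 4 in all. Of these 4 peaks 1, at Cdx2, overlapped an Eed-/- peak, with a level ratio of 0.144. Over all Eed+/+ peaks of the series the share that overlapped was 53.1%, and the difference of either gene list from it was not tested. The ratios of the 6 HoxC pairs, 0.178 or more, were all higher than those at Pknox2 and Cdx2. The counting interval at Hoxc11, 0.147 to 0.214, included the Pknox2 ratio, however, and these differences were not tested. The Pknox2 and Cdx2 ratios lay below the lower quartile over all 1247 pairs, 0.179. The HoxC median of 0.220 was near the median over all pairs, 0.225.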

How the data were processed

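The deposited RING1B peak lists, 1 for Eed-/- and 1 for Eed+/+ mESCs, were the data. Per the methods and labels, bowtie placed the tags on mm9, the authors kept uniquely placed tags, and MACS calls were retained at an FDR under 2% and above 100 tags. Versions and the control library of these steps: not given in the sources used here. Deposited for every peak are its position, raw tag counts, fold enrichment as a ratio over background, FDR in percent, a score, −10log10(p), and the nearest gene as the authors assigned it. The score was not used. Mapped tags are those stated with the study.

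An overlap needed at least 1 bp, and where several Eed-/- peaks lay on an Eed+/+ peak the longest overlap made the pair. Level ratios carry exact conditional binomial intervals, tags exact Poisson intervals. No test was made, since each genotype has 1 call. The genome (NCBIM37) and annotation (GENCODE M1) are of the same build, and no peak of 4157 ran past a chromosome end. Islands came from a running score (17 for CG, −1 for any other base). The overlap and island code was tested on simulated data. The members and lists were chosen with earlier results of these data known. The rule for named genes took all HoxC genes and their peaks, and of other genes the member with the highest level, and the paralogues named by group were chosen after their values were seen. Alternatives varied the overlap, the FDR, the depth scaling, the membership by position and the island size. CBX7 samples were left out, and a few summit windows were chosen for display, of which 1 is not reported here. Start sites over the genome are those of protein coding genes in the annotation. Software was numpy 2.4.6, numba 0.67.0, scipy 1.17.1 and matplotlib 3.10.9 under Python 3.11.15.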

Additional observations from a re-analysis of the deposited data

How the results depend on the processing

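The overlap of HoxC peaks depended on how a shared or accepted peak was defined. With at least 50% of both peaks required, 1 Eed-/- and 1 Eed+/+ peak overlapped in place of 6 and 6, because the Eed-/- peaks were narrow. The shared part of the Eed+/+ width had a median of 27.4% at the HoxC pairs and 81.8% over all pairs. The share of the whole series that meets the 50% rule is not given here. With the FDR held to 1% or less in both lists, 2 Eed-/- peaks were left and overlapped 2 Eed+/+ peaks, the Eed-/- covered length was 2374 bp and Eed-/- peaks lay on 2 islands. That FDR was met by 436 of all 1810 Eed-/- peaks (24.1%). With only Eed-/- peaks that would exceed 100 tags at the Eed+/+ depth, 0 Eed-/- and 0 Eed+/+ HoxC peaks overlapped, and no level ratio could be computed. Only 120 of all 1810 Eed-/- peaks would pass that rule. The median level ratio of 0.220 became 0.163 with fold enrichment, 0.922 without scaling for depth and 0.0614 with Eed-/- tags over the Eed+/+ width, a lower bound. With long islands only, Eed+/+ peaks lay on 8. The other 9 alternative values, among them members chosen by position, stayed close to the reported ones. With 1 call per genotype no replicate could be left out, and every interval covers counting error alone. No paired analysis was possible because the lists hold 1 call per genotype and the Eed+/+ RING1B sample is single.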
